A study of Mus musculus with 29 samples.

Results

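Genomic sites at which many different transcription factors gave ChIP-seq peaks were examined in mouse NIH-3T3 fibroblasts. Joining every group of touching peaks, whichever construct they came from, gave 168506 sites, and the 726 sites (0.431%) with peaks of 10 or more of the 24 constructs are called widely shared. They were selected on the measured peak lists themselves, so the number and identity of constructs at a site are given as a description and are not tested. Every cell line carried rtTA3G and a doxycycline-inducible lentiviral transgene with HA tags at the C-terminus, and all were treated overnight with 500 ng/ml doxycycline, fixed with 1% formaldehyde for 10 min and precipitated with an anti-HA antibody. The factors are therefore expressed from transgenes and not at their natural level. The 21 wild-type constructs were BHLHB8-HA, BRACHYURY-HA, CDX2-HA, DLX1-HA, DLX6-HA, DUXBL-HA, EBF1-HA, FOXA1-HA, HLF-HA, MAX-HA, NANOG-HA, OCT4-HA, PRR3-HA, RHOX11-HA, SIX6-HA, SOX15-HA, SOX2-HA, TEAD1-HA, THAP4-HA, TOX3-HA and ZFP319-HA. The others were the FOXA1 mutants FOXA1_RR-HA and FOXA1_SW-HA, and OCT4-HA expressed together with SOX2-YPET. There were 2 peak lists each for SOX2-HA, OCT4-HA, BHLHB8-HA and FOXA1-HA, which were merged, and the other 20 constructs had 1 list and so no replicate error. The input sample, from cells without a transgene, had no list here. The lists hold positions only, so the read depth and the height of each peak are unknown, and a missing peak is not shown to be missing binding.

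Most transcription factors recognise a short DNA sequence through a structured domain, yet a given genome holds far more matches than bound places. Regions occupied by many unrelated factors are known from ChIP-seq in several organisms. Some of them are open enhancers, at which factors with different specificities gather on accessible DNA. In fibroblasts such enhancers are often bound by AP-1, the FOS and JUN dimer that responds to serum and growth factors. Other recurrent peaks lie in repeated sequence or over the bodies of very active genes, and lists of problematic regions exist because some of them are seen whatever the antibody.

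Repeated and unique sequence were both present among the widely shared sites, and examples are printed here because the results turn on that difference. The first set shows the central 150 bp of the 4 sites with the most constructs that did not fall in an untranslated region, read from the plus strand of GRCm38. Capitals mark bases in 32-base words that occur more than once in the genome. The 4931408C20Rik window is all in lower case, the Rps2 window is partly in capitals, and the other two are entirely in capitals.
4931408C20Rik promoter, chr1:26687631-26687780: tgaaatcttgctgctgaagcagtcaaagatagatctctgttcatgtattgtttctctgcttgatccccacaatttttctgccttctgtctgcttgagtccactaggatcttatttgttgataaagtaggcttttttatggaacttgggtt
Zfp600 intron, chr4:146173874-146174023: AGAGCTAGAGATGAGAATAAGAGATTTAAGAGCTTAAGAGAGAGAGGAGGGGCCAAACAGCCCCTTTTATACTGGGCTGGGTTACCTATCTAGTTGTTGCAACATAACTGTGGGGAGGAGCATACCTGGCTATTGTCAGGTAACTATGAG
Rps2, chr17:24721379-24721528: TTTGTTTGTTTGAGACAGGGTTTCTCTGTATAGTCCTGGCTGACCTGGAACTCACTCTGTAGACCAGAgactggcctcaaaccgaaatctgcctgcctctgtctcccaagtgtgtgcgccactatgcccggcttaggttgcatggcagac
Pisd-ps2 intron, chr17:3081695-3081844: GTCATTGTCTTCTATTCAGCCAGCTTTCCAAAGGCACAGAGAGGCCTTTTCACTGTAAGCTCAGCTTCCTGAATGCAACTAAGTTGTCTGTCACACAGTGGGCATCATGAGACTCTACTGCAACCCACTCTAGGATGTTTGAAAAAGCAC

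The second set shows the AP-1 sequence, spelled TGACTCA or TGAGTCA and marked by capitals, at 3 sites away from promoters whose words were unique. They were chosen after their values were seen, from the sites of this kind with many constructs (15, 14 and 13) that hold the sequence within the central 150 bp. Other sites of this kind with as many constructs were not printed. A single-copy site of 15 constructs with the sequence, at which 49.7% of words were repeated, was also left out.
Intergenic, chr1:88474732-88474881: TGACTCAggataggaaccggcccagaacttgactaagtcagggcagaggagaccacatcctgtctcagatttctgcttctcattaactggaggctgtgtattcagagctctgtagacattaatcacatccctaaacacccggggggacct
Intergenic, chr3:51092236-51092385: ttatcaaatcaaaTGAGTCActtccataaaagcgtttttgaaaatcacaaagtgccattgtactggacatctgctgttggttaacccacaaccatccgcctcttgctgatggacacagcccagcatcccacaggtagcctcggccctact
Fam102b intron, chr3:109010997-109011146: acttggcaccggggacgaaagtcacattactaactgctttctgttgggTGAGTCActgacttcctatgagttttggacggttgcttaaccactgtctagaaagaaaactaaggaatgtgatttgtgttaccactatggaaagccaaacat

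The number of sites fell steeply with the number of constructs. A single construct accounted for 128630 sites, 2 to 4 constructs for 30436 and 5 to 9 for 8714. Of the 726 widely shared sites, 627 held 10 to 14 constructs, 62 held 15 to 19 and 37 held 20 to 24, with a median of 11. The decline did not continue to the end. There were 8 sites with 18 constructs, 9 with 19, 5 with 20, 12 with 21, 9 with 22, 8 with 23 and 3 with all 24. Merging can join neighbouring peaks that do not overlap each other, and at 536 of the 726 sites at least 1 base lay under the peaks of 10 or more constructs. With peaks of at least 300 bp only, there were 189 sites. Leaving out replicate 1 of the duplicated constructs lowered the number of sites to 436, and leaving out replicate 2 lowered it to 701. Together the 726 sites covered 787.68 kb. Their median width was 1016.5 bp, beside 780 bp at sites of 5 to 9 constructs and 282 bp at sites of 1 construct. Width enters the way sites are merged, so it is described only.

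**Figure D1:**
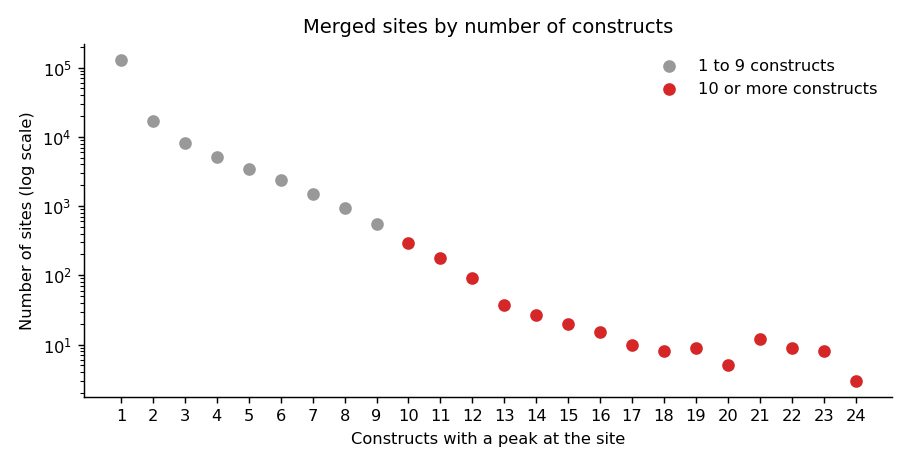
Number of merged sites (log axis) against the number of constructs with a peak at the site, with 1 to 9 constructs in grey and 10 or more in red. The points fall from 128630 sites at 1 construct to 5 at 20 constructs and rise again to 12 at 21 constructs.

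Sites just inside and just outside the threshold were compared. Just inside it were 295 sites with exactly 10 constructs, and just outside it were 559 sites with 9. Median GC content was 47.0% at the former and 46.0% at the latter. Promoters made up 3.05% and 5.72%, and the AP-1 sequence was found in 32.2% and 37.4%.

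Constructs differed widely in how many of the 726 sites they occupied. BHLHB8-HA, a basic helix-loop-helix factor that matures secretory cells, was present at 714 (98.3%). SOX2-HA, a high mobility group factor of pluripotent and neural cells, was present at 699 (96.3%). The homeodomain factors DLX1-HA, DLX6-HA and SIX6-HA, which act in forebrain, jaw and eye development, were present at 677, 671 and 649 sites. These 5 constructs were found together at 557 sites (76.7%). FOXA1-HA, a forkhead pioneer factor, occupied 611 sites and SOX15-HA occupied 608. Intermediate numbers were found for EBF1-HA, a B cell factor (480), DUXBL-HA, a double homeobox protein (459), CDX2-HA, an intestinal and posterior homeodomain factor (452), MAX-HA, the partner of MYC (408), and HLF-HA, a PAR bZIP factor (392). BRACHYURY-HA, the T-box factor of mesoderm, occupied 309 sites, RHOX11-HA 289, TOX3-HA 245, NANOG-HA 230 and ZFP319-HA 227. At the low end were SOX2-YPET+OCT4-HA with 123 sites, FOXA1_RR-HA and FOXA1_SW-HA with 100 each, OCT4-HA with 81, TEAD1-HA with 60, PRR3-HA with 55 and THAP4-HA with 40.

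Replicate lists of the same construct differed in these numbers. BHLHB8-HA had peaks at 683 of the 726 sites in replicate 1 and 543 in replicate 2, SOX2-HA at 675 and 501, FOXA1-HA at 580 and 240, and OCT4-HA at 62 and 46. The spread for FOXA1-HA, the widest of the 4, was wider than the gap between SOX15-HA and RHOX11-HA in the order of constructs. That for OCT4-HA was the narrowest. The other 20 constructs had no duplicate, so differences between neighbours in the order cannot be judged.

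The order followed, in part, how many sites each construct had in all. Over the 24 constructs, Spearman's rho between the number of sites and the share of widely shared sites was 0.737 (Pearson's r with log10 site number 0.738), where each construct contributes to both measures and depth is not known. TEAD1-HA, the DNA-binding partner of YAP, stood apart from that order. It had 14945 sites in the genome and reached 60 widely shared ones (8.26%), whereas SIX6-HA had 5973 sites and reached 649 (89.4%). NANOG-HA had 383 sites in all, and 230 of them (60.1%) were widely shared. For PRR3-HA the share of its own sites was 88.7% (55 of 62), for THAP4-HA 71.4% (40 of 56) and for OCT4-HA 69.8% (81 of 116). Among the 37 sites of 20 to 24 constructs the relation to total site number was weak, with rho = 0.296 over the same 24 constructs.

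Combinations were diverse. The 726 sites carried 524 different sets of constructs, of which 425 were seen at 1 site each. The commonest set was found at 13 sites and consisted of BHLHB8-HA, CDX2-HA, DLX1-HA, DLX6-HA, DUXBL-HA, FOXA1-HA, MAX-HA, SIX6-HA, SOX15-HA and SOX2-HA. At the 37 sites of 20 or more constructs, 9 constructs were never missing, namely BHLHB8-HA, CDX2-HA, FOXA1-HA, HLF-HA, NANOG-HA, RHOX11-HA, SIX6-HA, SOX15-HA and SOX2-HA. TEAD1-HA was missing from 27 of the 37, THAP4-HA from 14, PRR3-HA from 7, ZFP319-HA from 6, and DUXBL-HA and SOX2-YPET+OCT4-HA from 5 each. Of the 8 sites with 23 constructs, 6 lacked TEAD1-HA only, 1 lacked MAX-HA and 1 lacked ZFP319-HA. TEAD1-HA was thus the construct most often absent although its list was long, and THAP4-HA and PRR3-HA, with short lists, came next.

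**Figure D2:**
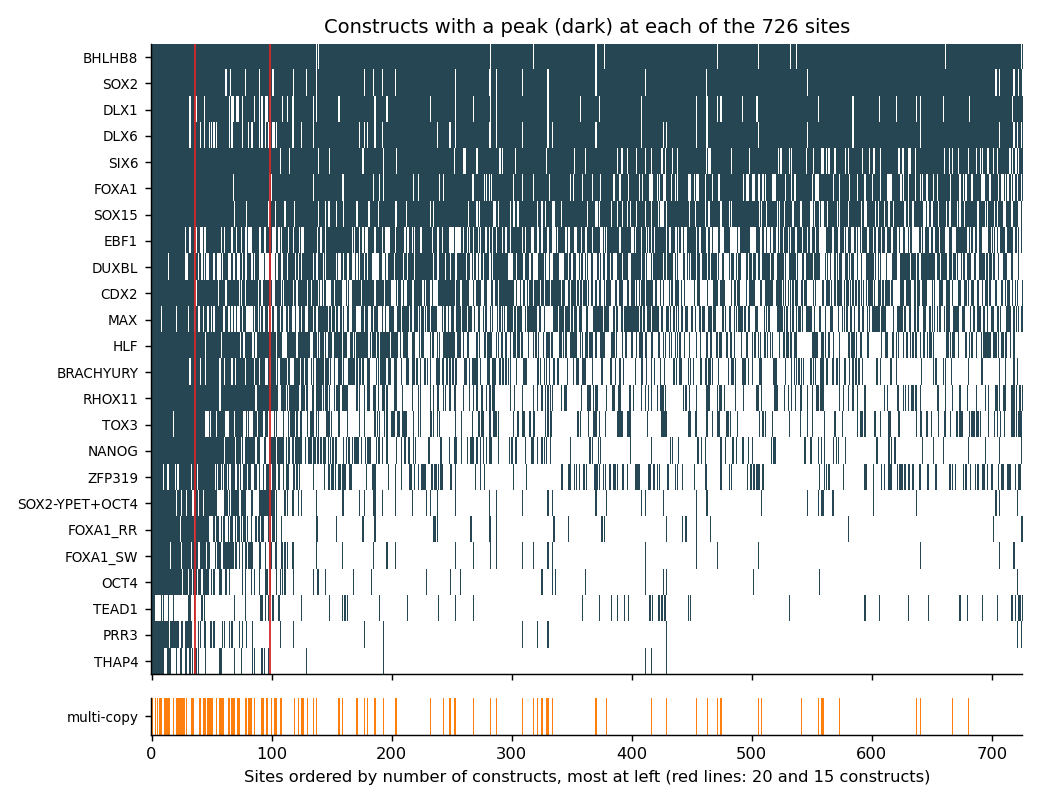
Presence (dark) of each of the 24 constructs, in rows, at the 726 sites, in columns ordered from the most constructs at the left. Red lines mark the end of the sites with 20 or more and with 15 or more constructs, and the orange bars below mark the 110 multi-copy sites, which crowd to the left.

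Because a site counts as widely shared partly through the construct under view, each construct was also scored at sites chosen on the other 23. All 24 constructs had a higher share at sites of 10 or more others than at sites of 5 to 9 others. The median over constructs was 40.7% at sites of 10 or more others, 10.8% at sites of 5 to 9 and 1.28% at sites of 1 to 4. The shares at sites of 10 or more others ran from 5.51% for THAP4-HA to 97.3% for BHLHB8-HA. NANOG-HA was present at 28.01% of sites of 10 or more others and at 1.60% of those of 5 to 9, and for FOXA1_SW-HA the values were 13.1% and 0.287%. For TEAD1-HA they were 6.06% and 3.83%. The values also lay near each other for DLX6-HA (87.6% and 85.7%) and BHLHB8-HA (97.3% and 90.8%), which were common at both kinds of site. Sites merge the peaks of all constructs and wide sites take up more peaks, and the part of width in these shares was not tested.

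Duplicate lists gave the only measure of agreement between libraries. At 174 sites chosen on 10 or more of the 20 constructs with a single list, BHLHB8-HA had peaks at 148 sites in replicate 1 and 124 in replicate 2, and FOXA1-HA at 139 and 106. SOX2-HA had 142 and 128, and OCT4-HA had 47 and 43, with 26 in both. The phi coefficient, which is 1 for identical and 0 for unrelated presence, was 0.432 for OCT4-HA, 0.321 for SOX2-HA, 0.0682 for FOXA1-HA and -0.0880 for BHLHB8-HA. The mean of 0.183 was above the median over all pairings of the 8 lists (0.112), but the difference did not pass the test (exact one-sided test over all pairings, p = 0.190). Requiring 8 instead of 10 of the 20 constructs moved the result past the threshold, with a mean of 0.253 at 492 sites (exact p = 0.0286).

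The composition of the sites changed with the number of constructs. Sites were called multi-copy when more than 50% of the 32-base words in the central 200 bp occurred elsewhere in the genome. This held for 110 of the 726 (15.2%, interval 12.6 to 17.97), beside 1.73% of the sites of 5 to 9 constructs and 6.33% of all sites. Within the widely shared sites it held for 57 of 627 (9.09%) with 10 to 14 constructs, 31 of 62 (50.0%, interval 37.0 to 63.0) with 15 to 19 and 22 of 37 (59.5%, interval 42.1 to 75.2) with 20 to 24. The share of bases soft-masked as repeats followed the same order, with means of 11.2%, 29.2% and 31.4%, beside 22.8% over all sites and 36.4% over the genome. The overall share moved with the definition, to 6.55% at sites of 8 or more constructs, 31.9% at 12 or more and 7.58% where 75% of words had to be repeated. Intervals are exact 95% binomial intervals and cover counting error over sites only. Alignment kept uniquely placed reads, and peaks overlapping input peaks or blacklisted regions had been removed from the lists. The part of either step in these shares was not tested, nor whether the cells hold more copies of such sequence than the assembly does.

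Most multi-copy sites had few copies, and these were often close. The median number of copies over all words of the window was 2 to 5 at 84 of the 110 sites, above 5 and up to 50 at 24, and over 50 at 2. At 76 sites (69.1%) the commonest place for a further copy of a repeated word was within 1 Mb on the same chromosome. The other sites were likewise placed by the commonest class of their repeated words, each word by its nearest copy. That class was farther along the same chromosome at 3 sites, another chromosome at 10, an unplaced contig at 10, and words of over 50 copies, which were not traced, at 11. A site could hold words of several classes. At 45 sites most repeated words had a copy inside some merged site, and at 19 inside another widely shared site. No central window held a word of the mitochondrial genome.

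Multi-copy sites were also gathered in clusters. Joining widely shared sites up to 50 kb apart gave 22 clusters of 3 or more, with 113 sites in all. They held 71 of the 110 multi-copy sites (64.5%) and 42 of the 616 single-copy sites (6.82%). The largest cluster lay at chr5:14903386-15061709, with 16 sites of which 15 were multi-copy, around the predicted gene Gm10354. The next, at chr11:3118904-3174310, held 14 sites over Sfi1, a centrosomal protein gene, and Pisd-ps1, a pseudogene of phosphatidylserine decarboxylase. Sfi1 alone held 12 sites, with 11 to 23 constructs. A further cluster at chr8:20266687-20437394 had 13 sites, 12 of them multi-copy, over Gm26804 and 2610005L07Rik, and another at chr5:15637259-15690480 had 7, all multi-copy, with Speer4cos. A cluster of 7 sites at chr7:38175894-38201246, around 1600014C10Rik, contained no multi-copy site although its sites had a median of 16 constructs. Chromosome 5 held the most widely shared sites (83). The X and Y chromosomes held 4 each, on Y out of 21 sites in all.

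The AP-1 sequence showed the opposite order. It was present in the central 200 bp of 28.5% of sites with 10 to 14 constructs (179 of 627), 6.45% with 15 to 19 (4 of 62) and none of the 37 with 20 to 24, for which an interval reaches 9.49%. It was found in 34.5% of sites of 5 to 9 constructs and in 10.9% of all sites. At single-copy widely shared sites the share was 28.9% (178 of 616), and at multi-copy ones 4.55% (5 of 110). Both strands were read, and the sequence is its own reverse complement apart from the central base. The SOX sequence, ACAAAG or ACAATG, was in 40.2% of the 726 windows and 27.1% of all windows. The forkhead sequence, TGTTTAC or TATTTAC, was in 11.3% and 6.47%. The shares at sites of 5 to 9 constructs were 37.6% for the SOX and 10.4% for the forkhead sequence, close to those of the widely shared sites. CATTCC, the core read by TEAD factors, was in 18.04% and 11.98% (17.6% at 5 to 9 constructs), although TEAD1-HA peaks were missing from most of these sites. The homeodomain core TAATTA was in 2.75% and 5.41%, with 3.70% at 5 to 9 constructs, and the GC box GGGCGG in 3.99% and 6.74%, with 8.46%. Among sequences typical of promoters, CCAAT was in 23.7% and 26.8%, the ETS sequence CCGGAAG in 0.964% and 1.52% and the NRF1 sequence GCGCATGC in 0.138% and 0.576%, while TGACGTCA, the cyclic AMP response element, was in none of the 726 (interval up to 0.507%) and 0.234% of all. The E-boxes CACGTG (3.31% and 2.99%) and CAGCTG (16.3% and 20.2%), the octamer ATGCAAAT or ATGCTAAT (1.65% and 1.58%) and the SRF box (1.65% and 1.04%) were counted in the same way. A match describes the letters in a window and is not evidence of binding to them.

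**Figure D3:**
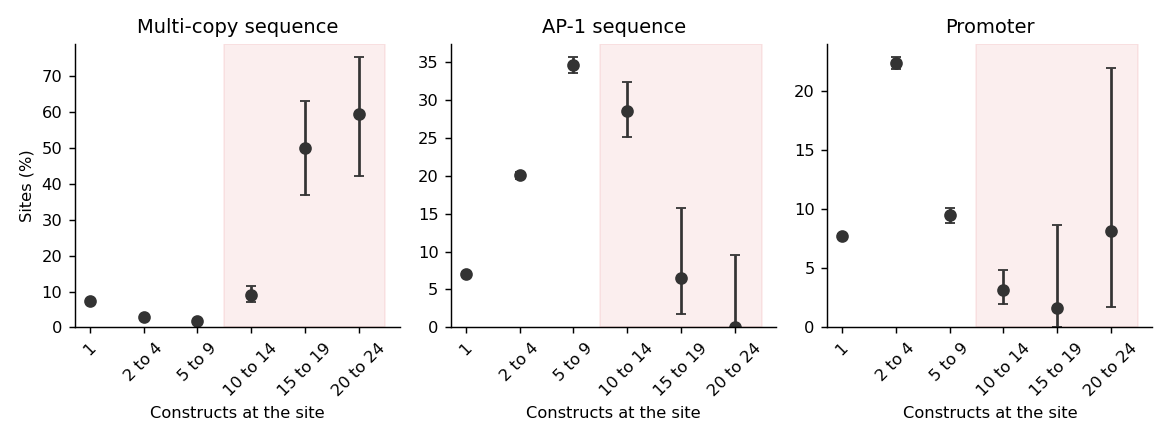
Share of sites with multi-copy sequence, with the AP-1 sequence and at promoters, by number of constructs (points, with exact 95% binomial intervals), the widely shared classes shaded. Multi-copy sequence rises from 9.09% to 59.5% across the shaded classes while AP-1 falls from 28.5% to none.

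The median GC content of the widely shared sites was close to that of other sites, and GC-rich windows were less common than over all sites. The median was 47.0% (middle 50% of sites 43.0 to 51.5), beside 46.5% over all sites and 41.7% over the genome. It was 47.0% at 10 to 14 and at 15 to 19 constructs, and 50.0% at 20 to 24. A GC content over 60% was found at 21 of the 726 sites (2.89%), beside 17.2% of the sites of 2 to 4 constructs and 7.73% of all sites. The ratio of observed to expected CpG had a median of 0.206, and the same ratio was 0.215 at sites of 5 to 9 constructs.

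Promoters were rare as well. The centre of 24 sites (3.31%, interval 2.13 to 4.88) lay 1 kb or less from a protein-coding transcript start, beside 9.47% at sites of 5 to 9 constructs, 22.3% at 2 to 4 and 10.4% over all sites. Introns held 292 sites (40.2%), exons 48 (6.61%) and intergenic sequence 362 (49.9%), beside 43.1%, 5.51% and 41.0% of all sites. At the 37 sites with 20 or more constructs, 8 (21.6%) were centred on exons and 3 (8.11%) on promoters, beside 5.51% and 10.4% over all sites.

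The 3 sites with all 24 constructs differed in kind. The site at chr1:26686879-26688342, covered the promoter of 4931408C20Rik in unique sequence with 38.5% GC. The site at chr4:146173393-146174920, lay in an intron of Zfp600, a zinc finger gene, with 91.7% of its words repeated. The site at chr17:24719879-24721863, covered Rps2, a protein of the small ribosomal subunit, with the small nucleolar RNA Snora64 and the host transcript Snhg9. Among the 7 further sites that complete the 10 with the most constructs, all with 23, chr17:3081435-3082575 lay in an intron of Pisd-ps2 and had every word repeated. A site at chr11:3132027-3132619 lay on an exon of Sfi1 and 1 at chr5:15004315-15004990 in the chromosome 5 cluster, with 77.5% and 61.5% of words repeated. The site at chr13:44869574-44870012 lay in an intron of Jarid2, a partner of Polycomb repressive complexes, and was the 1 of the 7 that lacked MAX-HA and kept TEAD1-HA. It was multi-copy, with 59.8% of its words repeated. The others lay at chr7:38175894-38176671 over the small nuclear RNA gene Gm22203, at chr1:31793791-31794632 between genes and at chr13:119491248-119492536 in an intron of Tmem267. Repeated words made up 0%, 28.4% and 12.4% of their windows. The second promoter by number of constructs was that of Hnrnpa3, a splicing regulator, at chr2:75661383-75664448, which lacked ZFP319-HA.

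Of 21938 protein-coding genes, 255 (1.16%) had a widely shared site in the gene or within 1 kb of it, and 226 of them had just 1. These genes were long, with a median of 93.1 kb beside 17.4 kb over all. Ribosomal protein genes were counted from a list of 86, and 7 (8.14%) had a widely shared site, against the 1.16% of all genes, although their median length was 3.27 kb. Those with the most constructs were Rps2 (24 constructs), followed by Rpl21 and Rpl7a (21 each). For sites of 5 to 9 constructs the list was below the whole, with 6.98% beside 12.9%. All 7 of these genes carry small nucleolar RNAs, which guide the modification of ribosomal RNA and are released from introns, and their sites were the only 7 of the 726 to touch an exon of a small nucleolar RNA. That is 0.964% of widely shared sites, beside 0.0918% of the sites of 5 to 9 constructs and 0.0427% of all sites. Touching was scored over the whole site, and a wider site touches more exons. The 7 sites were 1104 to 2593 bp wide, and the median width over all sites was 314 bp. The part of width was not tested. All 7 held 15 or more constructs. No central window of the 7 was multi-copy, with repeated words at none to 48.5% of positions.

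The other lists held few genes with a site, and most are too short for their counts to differ visibly from the 1.16% of all genes. Of 14 glycolysis gene entries 1 had a site (7.14%), Gapdh, the glyceraldehyde-3-phosphate dehydrogenase, with 22 constructs at chr6:125161346-125163270. Words of its central window had a median of 65 copies. Hmgb1, an abundant chromatin protein in none of the lists and named after its value was seen, had 21 constructs over an exon in unique sequence. Of 67 replication-dependent histone genes 1 had a site (1.49%, Hist4h4 with 10 constructs), and of 365 zinc finger genes named Zfp 3 had a site (0.822%): Zfp600, Zfp652 and Zfp661. None of 22 matrix genes, which include the collagens, had a widely shared site, although 15 of them (68.2%) had a site of 5 to 9 constructs, beside 12.9% of all genes. None was found either for the lists of 23 immediate early genes, 30 cytoskeletal genes, 17 translation factor genes, 19 chaperone genes, 24 splicing and RNA-binding genes or 13 long noncoding RNAs and small nucleolar RNA hosts. Hnrnpa3 and Snhg9 are not in these lists. At 1.16% of all genes, a list of such lengths can hold none without differing from the whole. Exons of processed pseudogenes were touched by 7 of the 726 sites (0.964%, interval 0.389 to 1.98). The share was 0.310% at sites of 5 to 9 constructs and 0.532% over all sites. Within the widely shared sites it was 0.319% at 10 to 14 constructs (2 of 627) and 8.11% at 20 or more (3 of 37). Exons of unprocessed pseudogenes were touched by 11 of the 726 sites (1.52%), beside 0.172% of sites of 5 to 9 constructs and 0.136% of all sites. These were 8 of the 110 multi-copy sites (7.27%) and 3 of the 616 single-copy sites (0.487%). Widths differed between these classes, and the part of width was not tested.

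The 99 sites of 15 or more constructs were sorted by what they lay on, which does not explain them. Multi-copy sequence was found at 53, and 66 were multi-copy or part of a cluster. Of the remaining 33, 17 touched an exon, among them the sites of the 7 ribosomal protein genes and those at Hnrnpa3, Hmgb1 and 4931408C20Rik, and 16 touched no exon. Over all 99 sites, 37.4% touched an exon of any annotated gene type. Exons of protein-coding genes alone were touched by 12 of the 62 sites of 15 to 19 constructs (19.4%) and 10 of the 37 of 20 to 24 (27.0%). The protein-coding share was 13.9% of all sites, whose median width was 314 bp. The median was 914 bp at 15 to 19 constructs and 885 bp at 20 to 24, and the part of width was not tested.

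The constructs present differed between the 2 kinds of site. RHOX11-HA, a reproductive homeobox factor, was present at 94.5% of the 110 multi-copy sites and 30.0% of the 616 single-copy sites. For SOX2-YPET+OCT4-HA the shares were 56.4% and 9.90%, for FOXA1_SW-HA 51.8% and 6.98%, for NANOG-HA 68.2% and 25.2% and for HLF-HA 87.3% and 48.1%. The order was the other way round for DLX6-HA (71.8% and 96.1%), MAX-HA (39.1% and 59.3%), DLX1-HA (77.3% and 96.1%) and DUXBL-HA (49.1% and 65.7%). In all, 16 of 24 constructs had the higher share at multi-copy sites. Multi-copy sites held more constructs, which raises most shares. Among sites of 10 to 14 constructs alone, RHOX11-HA was at 52 of 57 multi-copy and 140 of 570 single-copy sites (91.2% and 24.6%). SOX2-YPET+OCT4-HA was at 43.9% and 4.39%, FOXA1_SW-HA at 33.3% and 1.93%, MAX-HA at 15.8% and 58.2%, and DLX6-HA at 63.2% and 97.0%. These shares come from 1 list for each of these constructs and were not tested.

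**Figure D4:**
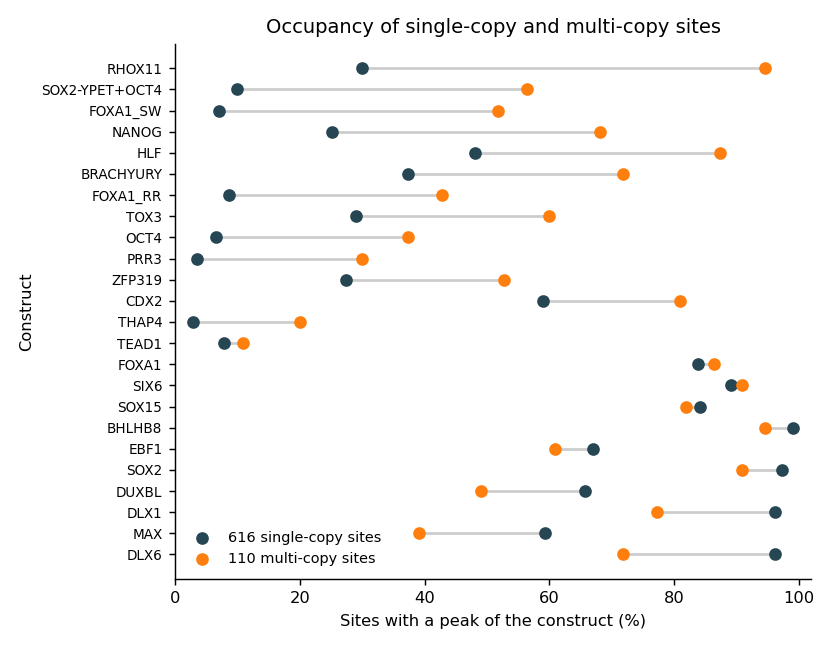
Share of the 616 single-copy (dark) and 110 multi-copy (orange) widely shared sites with a peak of each construct, ordered by the difference. RHOX11 shows the widest gap, 30.0% against 94.5%, and DLX6, MAX and DLX1 lie in the opposite direction.

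The sequence of the peaks themselves was compared with the known specificity of each factor. For wild-type constructs with a consensus and at least 20 peaks at widely shared sites, the share of peaks with the consensus in their central 200 bp was taken at those sites and elsewhere. CDX2-HA had the caudal sequence, TTTATG or TTTATT, in 84.8% of 24790 peaks elsewhere and in 46.3% of 488 at widely shared sites. FOXA1-HA had the forkhead sequence in 38.2% and 16.4%, EBF1-HA the sequence CCCNNGGGA in 33.8% and 11.9%, SOX15-HA the SOX sequence in 62.4% and 44.0%, BHLHB8-HA the E-box CAGCTG in 34.7% and 18.5%, and SOX2-HA the SOX sequence in 54.1% and 41.0%. DUXBL-HA had its double homeobox consensus in 5.48% of peaks elsewhere and in none of 476 at widely shared sites. Taking 3 counts as an approximate limit allows a share of up to 0.630%. For BRACHYURY-HA, DLX1-HA, DLX6-HA, HLF-HA, MAX-HA, OCT4-HA and SIX6-HA the differences ran from -1.14 points (MAX-HA) to -6.89 points (DLX6-HA). Some of these rest on very few matches. BRACHYURY-HA had its sequence in 0 of 320 peaks at widely shared sites and 5 of 400 elsewhere, and OCT4-HA in 5 of 84 and 4 of 35. The exceptions were TEAD1-HA, with 4.46% elsewhere and 16.7% of its 60 peaks at widely shared sites, and NANOG-HA, with 3.27% and 3.29%. Central windows of sites, read for the same letters, gave a background. CATTCC was in 18.04% of the 726 and 11.98% of all sites, so 16.7% was near the share of the widely shared windows. The 4.46% of TEAD1-HA peaks elsewhere was below the share of all sites. TAATTA was in 5.41% of all sites, above the NANOG-HA shares. CACGTG was in 2.99%, near the 3.04% of MAX-HA peaks elsewhere. The caudal sequence was in 31.8%, below the 84.8% of CDX2-HA. The SOX sequence was in 40.2% of the 726, near the 41.0% of SOX2-HA there. Over the 16 constructs the share was lower at widely shared sites in 14, with a mean difference of -9.40 percentage points (SD 11.9, n = 16), and a two-sided permutation test with 100000 sign flips gave p = 0.00408. Reading the whole peak in place of its centre ended the call, with a mean difference of -4.45 points (permutation p = 0.139). Median peak width was greater at widely shared sites in 24 of 24 constructs, for example 334 bp against 268 bp for CDX2-HA and 720 bp against 354 bp for BHLHB8-HA. A wider peak holds more letters, and its central 200 bp is a smaller part of it. The constructs share sites, so they are not independent.

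**Figure D5:**
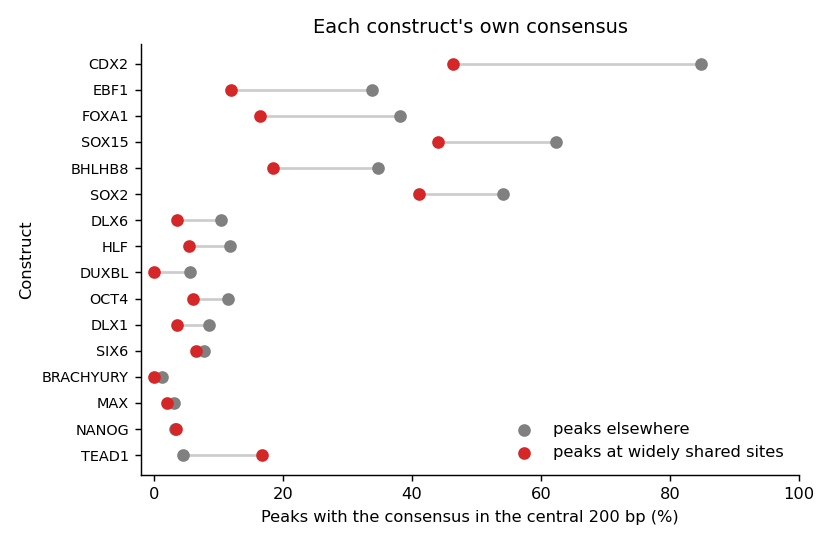
Share of peaks with the construct's own consensus in the central 200 bp, at widely shared sites (red) and elsewhere (grey), for the 16 wild-type constructs tested. Red lies left of grey in 14 constructs, and TEAD1 lies the other way.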

How the data were processed

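ChIP-seq peak lists of 24 constructs were analysed (28 lists of 29 samples in the labels; the input had no list here). The authors used STAR 2.5.3a to map paired-end reads to mm10, kept unique alignments on chromosomes 1 to 19, X and Y, removed duplicates with Picard and called peaks per sample with MACS2 2.1.1.20160309. Peaks that overlapped blacklisted regions or peaks of the input were dropped by them. In the deposited lists each peak has a position in bp and no score or read number, so depth is unknown. Groups and replicate numbers came from the labels.

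The lists of a construct were merged, touching peaks of all constructs were merged into sites, and sites of 10 or more constructs were kept. The core of a site is the longest stretch under most constructs, and the 200 bp around its centre gave GC content, soft-masked bases, motif matches and 32-base words, which were counted on both strands of the GRCm38 primary sequences, mitochondrial and unplaced contigs included. Sites with over 50% repeated words were called multi-copy, a limit chosen after the data were seen. Features came from GENCODE vM21 and soft-masked sequence from RefSeq GRCm38. Coordinates count from 1.

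Agreement of duplicates was tested over all pairings of the 8 lists (exact, one-sided) and own consensus by 100000 sign flips over constructs (two-sided), with a threshold of 0.05. Intervals are 95% exact binomial, except the limit for DUXBL-HA, which takes 3 counts. Named sites are the 10 with most constructs, the first 2 of each feature class and for each gene list the members with the most constructs. A withheld item is not reported here. The members, gene lists and sequences were chosen with earlier results of these data known. Alternatives covered peaks of at least 300 bp, autosomes only, 8 or 12 constructs, other windows and each replicate left out. Python 3.11.15, NumPy 2.4.6, SciPy 1.17.1, Numba 0.67.0 and Matplotlib 3.10.9 were used, and merging, word counts and tests were tested on simulated data.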

Additional observations from a re-analysis of the deposited data

How the results depend on the processing

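The number of widely shared sites was 726, and was 189 with peaks of at least 300 bp, 2213 with 8 or more constructs and 254 with 12 or more. Leaving out replicate 1 or replicate 2 of the duplicated constructs gave 436 and 701 sites. Median GC content was 47.75% without replicate 1, 47.0% without replicate 2, and 46.0% over whole sites. The multi-copy share of 15.2% became 18.7% where 1 base lay under 10 or more constructs, 22.2% with peaks of at least 300 bp, 6.55% with 8 or more constructs and 31.9% with 12 or more. Without replicate 1 it was 21.3% and without replicate 2 it was 14.3%. With limits of 25% and 75% of words, chosen after seeing the data, it was 20.2% and 7.58%. The median soft-masked share was 9.50% in central windows and 13.5% over whole sites. The promoter share stayed within its interval under all 9 alternatives run, from 2.20% to 4.70%. The cause of these shifts was not tested beyond the change of threshold each one makes.

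With the replicate number as a replicate block, so that only replicate 1 was paired with replicate 2, the mean phi stayed at 0.183 and the exact p was 0.0417, the smallest that 24 pairings allow. The labels tie the replicate numbers of different constructs to no shared batch or day. With 8 or more of the 20 single-list constructs the mean was 0.253 (exact p = 0.0286), and the Jaccard index was 0.574 (exact p = 0.0762). Leaving out each duplicated construct in turn gave means from 0.1004 to 0.274, with p from 0.0667, the smallest that 15 pairings allow, to 0.467 in the exact test. The consensus difference of -9.40 points was -4.45 over whole peaks (permutation p = 0.139). Under the other 5 alternatives it ran from -11.0 to -8.43 points, with permutation p from 0.00149 to 0.0103, including -8.63 with multi-copy sites left out, an alternative chosen after seeing the data. With no read numbers in the lists, peaks too weak to be called cannot be told apart from absent ones.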
